A study of Homo sapiens with 61 samples.

Results

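In neurons made from a line without DLK, long runs of neighbouring genes on chromosomes 2 and 5 had about 50% of the RNA seen in the other lines. The genes described here lie in 3 windows and pass a level limit. They start between 120 and 240 Mb of chromosome 2, or between 0 and 20 or 40 and 100 Mb of chromosome 5 (GRCh38). Their mean log2 CPM (CPM is the count scaled to the library total and a TMM normalization factor) was 3 or more over the experiment. There were 468 such genes of 58440 in the count table: 298 on chromosome 2, 40 in the first window of chromosome 5 and 130 in the second. The 3 windows hold 3016 table entries, of which 877 passed the count filter and could be tested, and all 468 members were among those. The windows were chosen by the log2 fold changes between DLK KO and WT in untreated neurons, so those values are given as a description without a test, and so are the untreated values against LZK KO, which share the DLK KO libraries. The tested comparisons are those between vincristine-treated libraries, which the choice did not use, although they come from the same cell lines. The members just over the level threshold were ZBED3-AS1, LYPD1 and SV2C (mean log2 CPM 3.02, 3.03 and 3.04), and the genes just under it were ATP6AP1L, TTN and AC114316.2 (2.98, 2.98 and 2.97).

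All cells came from WTC11, a human induced pluripotent stem cell line, and carried the neuron-forming factor NGN2 under a doxycycline switch, which turns the stem cells into cortical-type neurons. Experiment 1 used 4 cell lines: WT, a DLK KO, an LZK KO, and the DLK LZK double KO (called double KO here), each treated on day 14 for 16 hours with 5 nM vincristine, a drug that breaks down microtubules, or with the DMSO vehicle (untreated). Each of the 8 groups had 4 libraries of polyadenylated RNA. Experiment 2 used WTC11-derived neurons that carried the CRISPRi machinery, which silences a gene at its start, and a lentiviral guide to ATF2, to JUN or to no gene (scrambled control). They had the same day, dose and hours, with 5 libraries per group except the ATF2 guide with vincristine, which had 4. In experiment 1 there was 1 line per genotype, so a knockout and anything else particular to its line cannot be told apart. The sources used here do not say whether the 4 libraries of a group came from separate cultures, so the p-values measure only the spread between these libraries, which may be technical.

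DLK (gene MAP3K12, on chromosome 12) and LZK (gene MAP3K13, on chromosome 3) are related kinases that sense axon damage and microtubule disruption and pass the signal to the JNK kinases. JNK in turn acts on transcription factors such as JUN and ATF2. Neither kinase gene lies on chromosome 2 or 5. For most autosomal genes the RNA comes from both copies and its amount follows the number of copies. Transcription factors, feedback regulation and cell state move the amount of others. Runs of neighbouring genes that move together by a like amount are a known feature of cultured stem cell lines that gained or lost part of a chromosome. DNA copy number was not analysed here.

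The place where the chromosome 2 run begins lies between 2 neighbouring members. AMMECR1L (ENSG00000144233.9, chromosome 2 from 127861630 to 127885922) was the last member before the run, and SAP130 (ENSG00000136715.18, 127941217 to 128028120), a subunit of a histone deacetylase complex, was the first lowered member. The bases just upstream of both genes are shown because they are the nearest promoter sequence on either side of this step (RefSeq, GRCh38.p14). The AMMECR1L stretch is chr2:127885957-127886206 on the minus strand, 68.8% G or C, and the SAP130 stretch is chr2:128028121-128028309 on the minus strand, 76.7% G or C.
AMMECR1L: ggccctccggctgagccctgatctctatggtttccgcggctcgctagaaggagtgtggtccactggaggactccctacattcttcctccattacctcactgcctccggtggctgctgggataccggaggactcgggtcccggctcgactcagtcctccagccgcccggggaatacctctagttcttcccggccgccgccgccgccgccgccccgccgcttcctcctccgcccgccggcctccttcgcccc
SAP130: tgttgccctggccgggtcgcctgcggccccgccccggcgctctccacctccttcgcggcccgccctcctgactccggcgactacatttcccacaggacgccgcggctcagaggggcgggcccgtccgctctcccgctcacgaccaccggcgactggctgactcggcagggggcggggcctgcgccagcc

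A RefSeq promoter, here 250 bases before to 50 bases after the start, was found for 387 of the 468 members. The ATF2 gene is itself a member, and ATF2 and CREB1, another member, bind the cAMP response element, so promoters were searched on both strands for its 8-base form TGACGTCA. It stood in 7 member promoters (1.81%), against 614 of 27305 promoters of all genes (2.25%). Sites from 6 of those genes in the lowered runs follow, with 10 bases on either side and the element in capitals. The first is at chr5:71455569-71455596, the next at chr2:219544014-219544041 and chr2:219543969-219543996 (both CHPF), then chr2:148875154-148875181, chr2:240025373-240025400, chr2:206274646-206274673 and chr2:219206768-219206795.
BDP1: gctgtgcgtcTGACGTCAttctgcggcg
CHPF, outer site: cctctgctccTGACGTCActcagggcgc
CHPF, inner site: gggctgcttcTGACGTCAcatgggacgc
KIF5C: acctctacggTGACGTCAccgtcccggg
NDUFA10: accccggccgTGACGTCAcggcagcgcg
ZDBF2: gcaccttcccTGACGTCAaacctccatc
ZFAND2B: ccctgcgggaTGACGTCAgcgcgccgcg

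The shorter AP-1 form TGACTCA, which JUN-containing dimers bind and which is not contained in the first, stood in 12 member promoters (3.10%) against 6.05% of all promoters. A match is a description of these letters and not a bound site.

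Library totals in experiment 1 ran from 8.41 M to 14.6 M counts with a median of 10.3 M. MAP3K12 stood at 26.3 ± 2.48 CPM (SD, n = 4) in untreated DLK KO against 91.0 ± 2.23 in WT, and MAP3K13 at 31.9 ± 1.96 in LZK KO against 99.1 ± 1.93, so both target genes were low in the lines named for them. All 12 listed neuron markers were detected, and their summed level was 15145 to 16563 CPM in untreated DLK KO and 15439 to 16320 in WT. With vincristine those groups did not overlap, at 16617 to 17518 CPM in DLK KO and 13023 to 14756 in WT, and LZK KO was at 18202 to 18859. NEFM, SLC17A7 and DCX had higher means in untreated DLK KO than in WT, and the other neuron markers had lower means. NEFM, the largest part of the sum, was at 8424 and 6260 CPM untreated and 8995 and 4477 with vincristine. MAP2, itself a member of the windows, was at 1226 and 2337 untreated and 1172 and 2430 with vincristine. The summed level of 9 progenitor and division markers was lower in DLK KO, 241 to 308 CPM against 786 to 830 in untreated WT and 541 to 652 against 1064 to 2106 with vincristine. Most of that sum was NES (226 CPM in untreated DLK KO and 717 in WT), SOX2 was at 5.30 and 22.4 CPM, and MKI67 at 8.88 and 4.83. HES1 and CDK1 were under 1 CPM in both lines and HES5 in WT, and no marker of the list was at 0. Sums of the pluripotent list (8.52 to 74.6 CPM over all groups, POU5F1 and NANOG under 1 CPM), the glial list (16.7 to 52.0) and the fibroblast list (0.860 to 5.12) were small everywhere. The part of these marker differences in the results below was not tested. WT vincristine replicate 4 stood apart from its group, so the counts against WT, and the single-gene values whose call changed or that are high or low in that library, are also given without it.

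The lowered genes were not spread over the whole of the windows. The untreated difference between DLK KO and the mean of WT and LZK KO was segmented along 2 of the windows. The chromosome 2 window and the second of chromosome 5 were split, with the number of splits set by hand. The first window of chromosome 5 was not split and was counted as lowered throughout. This step, added after seeing the data, placed 419 members in 3 lowered runs and 49 in 3 level ends. On chromosome 2 the lowered run held 280 members from SAP130 to NDUFA10, a subunit of respiratory complex I, and went on past the window, where the next genes COPS9, GPC1 and CAPN10 had log2 fold changes of -0.41, -0.70 and -0.68 against WT with vincristine. In the first window of chromosome 5 all 40 members from CCDC127 to CDH18 were thus counted in the lowered run. The last of them, CDH18, was at -0.71 against WT and 0.04 against LZK KO with vincristine (edgeR adjusted p = 9.46e-07 and 0.798). Beyond the window GUSBP1, CDH12 and CDH10 stood at -0.35, 0.34 and 1.55 against WT. In the second window 99 members from EMB to ARRDC3 were lowered, with 15 level members before it (TTC33 to AC093297.2) and 16 after it (FAM172A to CHD1). The level on chromosome 5 therefore changed between 44826076 (start of AC093297.2) and 50396192 (start of EMB), and again between 91368724 (ARRDC3) and 93618069 (FAM172A).

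At the start of the chromosome 2 run the level changed between neighbouring members, although the third member beyond the step was not low against WT. AMMECR1L was at 32.2 to 37.9 CPM in the 4 WT vincristine libraries, 28.7 to 36.7 in LZK KO and 31.5 to 34.2 in the double KO, and at 63.2, 64.8, 65.4 and 68.6 in DLK KO. No DLK KO library overlapped another line, and the log2 fold change with vincristine was 0.89 ± 0.07 (SE) against WT and 0.95 ± 0.07 against LZK KO (edgeR adjusted p = 1.42e-12 and 4.33e-13). The neighbour POLR2D, an RNA polymerase II subunit, was at 0.37 and WDR33 at -0.02 against WT. SAP130, the next member along, was at 35.8 to 48.4 CPM in WT and 42.7 to 53.8 in LZK KO, and at 29.9, 31.8, 32.3 and 32.7 in DLK KO. Its log2 fold changes were -0.43 ± 0.08 and -0.57 ± 0.08 (edgeR adjusted p = 2.09e-05 and 1.98e-07), and those of the following member UGGT1, a glycoprotein folding sensor, were -0.90 and -0.92. HS6ST1, a heparan sulfate sulfotransferase and the next member after UGGT1, was at 0.41 against WT (edgeR adjusted p = 0.0157) and -0.62 against LZK KO (adjusted p = 0.000330), and without WT vincristine replicate 4 at 0.24 against WT (adjusted p = 0.0719). AMMECR1L thus rose beside the run, and SAP130 fell by less than the members' median, departing from it by 0.45 and 0.40 (adjusted p = 1.29e-05 and 9.78e-05).

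**Figure D1:**
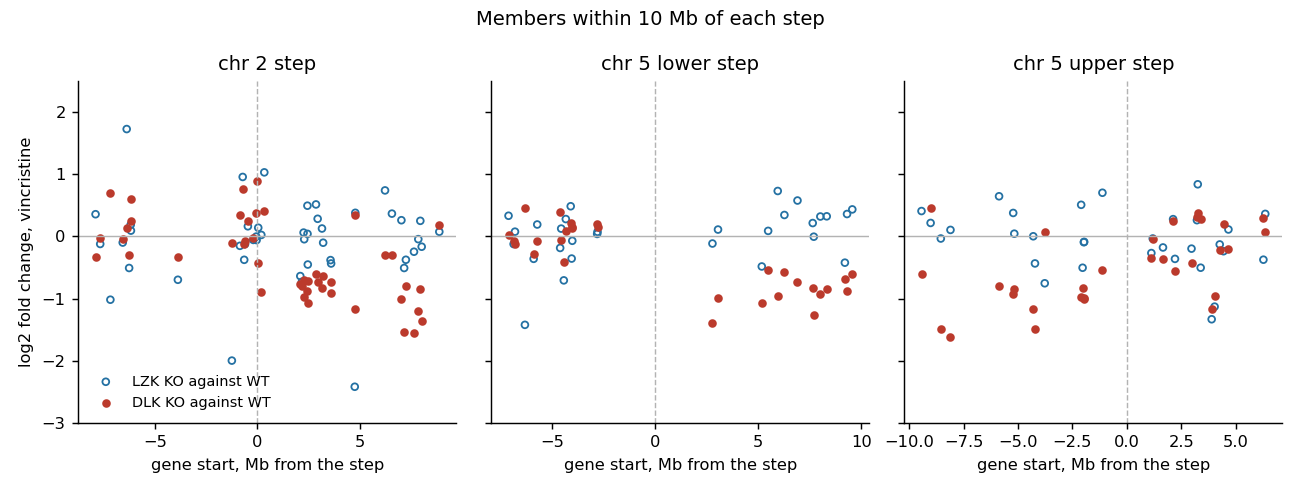
Fitted log2 fold changes with vincristine (vertical axis) of genes within 10 Mb of the 3 places where the level changes, against the distance of the gene's start from the step in Mb. Filled red points are DLK KO against WT and open blue points LZK KO against WT; the red points drop on the lowered side of each step (lowered-run median -0.93, level-end median 0.03) and the blue points do not.

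Over all 468 members the median log2 fold change of DLK KO with vincristine was -0.88 against WT and -0.97 against LZK KO, where the medians over all 18235 genes tested were 0.00. In the lowered runs the medians were -0.93 and -1.02, or 52.5% and 49.5% of the comparison line, and in the level ends 0.03 and 0.06. Untreated values, which chose the windows, were -0.89 and -0.98 in the lowered runs. With vincristine the chromosome 2 run stood at -0.94 against WT and -0.99 against LZK KO, the first chromosome 5 run at -0.81 and -0.98 and the second at -0.93 and -1.06. These are RNA levels in bulk cultures, in which fewer cells of a type and less RNA per cell cannot be told apart.

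With vincristine 400 of the 468 members were called lower in DLK KO than in WT (edgeR, adjusted p under 0.05), where 21.4% of all genes tested were called lower. Of these, 390 lay in the lowered runs and 10 in the level ends. Against LZK KO the count was also 400, with 391 and 9, beside 20.8% of all genes. Members called higher numbered 27 against WT (20.6% of all genes were called higher) and 26 against LZK KO (18.8% of all genes), and in both comparisons 11 of them lay in the lowered runs. All 4 DLK KO libraries lay below all 4 WT libraries in 379 members, beside 17.9% of all genes, and below all 4 LZK KO libraries in 393, beside 17.4%. Both comparisons use the same DLK KO libraries and are not independent. The untreated comparisons, on which the windows rest or with which they share libraries, were not tested. Without WT vincristine replicate 4 the median against WT was -0.84 and 403 members were called lower.

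Each library of the DLK KO line showed the shift. The median difference of the lowered-run members from the mean of WT and LZK KO was -0.950 to -0.883 log2 in the 4 untreated and -1.01 to -0.958 in the 4 vincristine DLK KO libraries, and -0.0911 to 0.119 in the 24 others. The level-end members of the same DLK KO libraries were at 0.00471 to 0.143, overlapping the other lines, which ran from -0.146 to 0.129. As a share of all counts, the lowered-run members took 2.77 to 2.92% in the DLK KO libraries and 5.39 to 5.84% in the others, so the groups did not overlap.

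**Figure D2:**
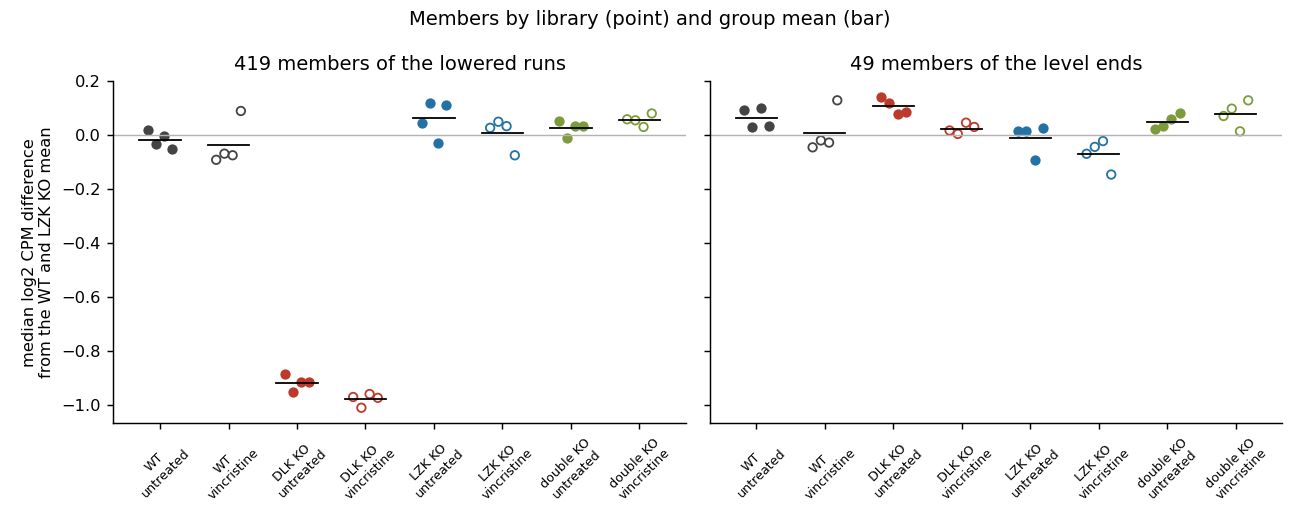
Each point is a library: the median log2 CPM difference of the 419 lowered-run members and of the 49 level-end members from the mean of WT and LZK KO. Filled points are untreated, open points vincristine, and bars are group means; the 8 DLK KO libraries lie between -1.01 and -0.883 for the lowered runs and overlap the other lines for the level ends.

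The other lines did not show the shift. In LZK KO the median of the lowered-run members against WT was 0.08 untreated and 0.08 with vincristine. Members called lower there numbered 83 untreated (17.7%, beside 16.8% of all genes) and 110 with vincristine (23.5%, beside 21%). Members called higher in LZK KO numbered 117 (25%, beside 17.1% of all genes) and 134 (28.6%, beside 21.7%). The double KO, in which MAP3K12 was also low (19.7 CPM untreated), had lowered-run medians of 0.05 and 0.10 against WT. Its members called lower numbered 94 untreated (20.1%, beside 22.1% of all genes) and 105 with vincristine (22.4%, beside 27.1%). Those called higher numbered 133 (28.4%, beside 23.6% of all genes) and 174 (37.2%, beside 28.5%). In both lines the member share called higher was thus above that of all genes. Of the 18235 genes tested, 10343 reached the members' level minimum, so the shares over all genes tested are not matched in level. In experiment 2 the 418 lowered-run members tested had medians of 0.05 (ATF2 guide) and 0.04 (JUN guide) against the control guide untreated, and -0.00496 and 0.0143 with vincristine. Genome-wide, 18 of 287 stretches of 10 Mb with at least 10 genes were below -0.5 in DLK KO in all 4 comparisons. All 18 were on chromosome 2 or 5. The untreated comparisons among the 4 chose the windows or share libraries with that choice, so stretches inside the windows are no separate evidence. Outside the windows lay only those that begin at 240 Mb of chromosome 2 and 140 Mb of chromosome 5. Also outside the windows, 21 genes on chromosome 5 from DIAPH1 to FBXO38 (starts 141515016 to 148383935) had medians of -1.01 against WT and -0.82 against LZK KO with vincristine. These bounds were set by hand, and where the lowering begins was not determined. TAF7, which starts before DIAPH1 at 141260225, was at -0.95 and -1.15. The protocadherin genes around TAF7 were mixed, with PCDHB2 at -1.27 and -1.65 and PCDHGB7 at 1.12 and 0.91.

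**Figure D3:**
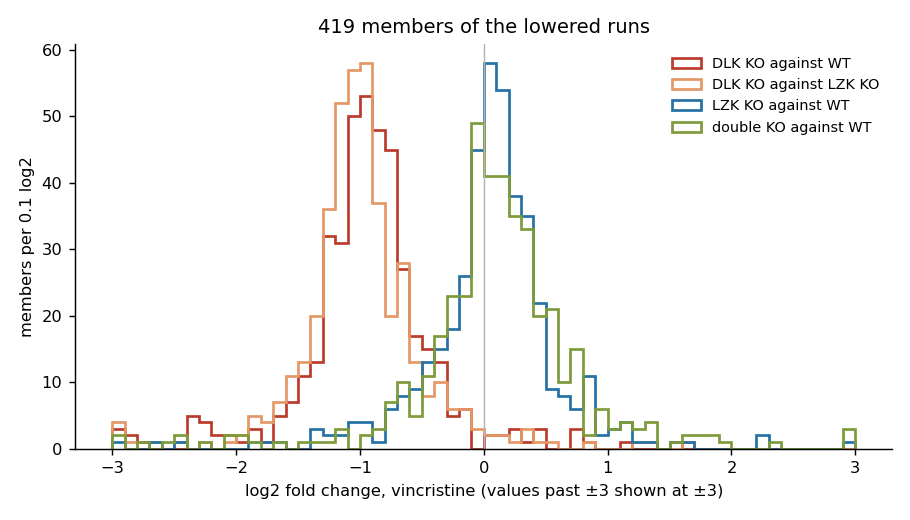
Number of the 419 lowered-run members per 0.1 log2 of fold change with vincristine, for DLK KO against WT, DLK KO against LZK KO, LZK KO against WT and double KO against WT. The DLK KO comparisons centre on -0.93 and -1.02, and the others on 0.08 and 0.10.

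Within the lowered runs most genes lay close to the shared value. Against WT with vincristine 289 of 419 members were between -1.25 and -0.5, 56 at -0.5 or higher and 74 at -1.25 or lower; against LZK KO these counts were 277, 47 and 95. Across these genes the signed log2 fold change was nearly unrelated to the mean log2 CPM (Pearson r = -0.01 against WT and -0.06 against LZK KO). It was weakly related to exon length (-0.08 and 0.19) and to gene span (-0.06 and 0.18), with opposite signs in the comparisons. A positive r means that longer genes were lowered less. These are correlations across genes that share libraries, given as a description. A departure was tested by asking, in the edgeR model, whether a member's vincristine fold change differed from the members' median in place of 0. Over all 468 members 129 departed upward against WT (21% of all genes called in the same run, other genes being tested against 0) and 117 downward (19.8%). Against LZK KO 139 departed upward (19.3%) and 98 downward (19%). The level ends, picked as not lowered in untreated libraries, held 46 of the upward departures against WT and 48 against LZK KO. In the lowered runs 83 departed upward (19.8%) and 116 downward (27.7%) against WT, and 91 (21.7%) and 98 (23.4%) against LZK KO. Against WT 129 departed upward and 125 downward when WT vincristine replicate 4 was left out. In both comparisons 42 members of the lowered runs departed upward (10%, beside 9.83% of all genes tested) and 50 downward, and 145 departed in neither. No share over all genes is given for the downward count or for those in neither, so neither count can be set against the background.

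The most abundant of the members with no departure serve as examples of the shift. They were picked by these same vincristine values, so they are no separate evidence for it. NCL, the nucleolar protein nucleolin, was at 932, 1033, 955 and 1020 CPM in the WT vincristine libraries, 957 to 1020 in LZK KO and 904 to 992 in the double KO, and at 530, 519, 508 and 505 in DLK KO. The DLK KO libraries lay below all others, with log2 fold changes of -0.93 ± 0.05 against WT and -0.94 ± 0.05 against LZK KO (edgeR adjusted p = 5.05e-17 and 4.98e-17). The splicing factor SF3B1 was at -0.92 and -0.92, the DNA-end-binding protein XRCC5 at -0.87 and -1.06, and the membrane ubiquitin ligase MARCH6 at -0.94 and -1.09. BASP1, a growth-cone protein, was at -0.86 and -1.17, and CSRNP3 at -0.79 and -0.84.

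The gene groups below were chosen with earlier results of these data known, and all counts are for lowered-run members called lower in both vincristine comparisons. Over all lowered-run members that count was 375 of 419 (89.5%), where 9.64% of all genes tested were called lower in both, and no group's share was tested against it. For translation and ribosome genes the count was 19 of 19, with medians of -0.84 against WT and -1.05 against LZK KO; RPS23 and RPL37A, both ribosomal proteins, fell by 1.12 and 1.26 against WT. The 4 genes of that group in the level ends stood apart from this: RPL37, NIFK, PAIP1 and MRPS30 were at -0.12, 0.25, 0.22 and 0.20 against WT. For mitochondrial genes it was 23 of 24 (medians -0.96 and -1.09), among them NDUFS1 of respiratory complex I at -1.06 and SDHA of complex II at -0.75, while NDUFB3 was at -0.67 against WT with an edgeR adjusted p of 0.0620. DNA repair and replication genes gave 15 of 15 (medians -0.95 and -1.10), including the mismatch repair gene MSH3 at -0.95 and RAD17 at -1.06. Protein folding and degradation gave 17 of 20 (medians -0.97 and -1.05), with the chaperonin subunit CCT5 at -1.11 and the ubiquitin ligase scaffold CUL3 at -1.03. None of these 4 groups had a lowered-run member called higher in either comparison.

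For genes of the microtubule and actin cytoskeleton, microtubules being what vincristine breaks down, the count was 14 of 15 (medians -1.01 and -1.05). MAP1B and MAP2, which bind and stabilise microtubules, were at -1.22 and -1.05 against WT and -1.36 and -0.94 against LZK KO, and the kinesin motor KIF5C at -1.19 and -1.18. MYO10, an unconventional myosin, was at -0.47 against WT and 0.03 against LZK KO, where its edgeR adjusted p was 0.860. CLASP1, a microtubule plus-end protein in the chromosome 2 level end, was at -0.04 and 0.06.

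In the ion channel, receptor and synapse group the count was 18 of 23 (medians -1.26 and -0.74), with 2 members called higher against WT and 3 against LZK KO. The voltage-gated sodium channel SCN3A was at -1.12 against WT and -0.94 against LZK KO, and SCN7A at -3.05 and -1.25. The related channel SCN9A was at 76.9 to 85.6 CPM in the DLK KO vincristine libraries, 96.8 to 106 in LZK KO, 216 to 223 in the double KO and 301 to 359 in WT. No line overlapped another, and LZK KO stood nearer to DLK KO than to WT. HOMER1, a scaffold of glutamate synapses, was at -1.47 and -0.80.

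For transcription factors the count was 10 of 16 (medians -0.38 and -0.74), and CREB1, ZEB2 and MEF2C were among the buffered genes described below. KLF7 (-1.29 and -1.16), SP3 (-1.04 and -1.30) and ATF2 (-1.05 and -1.27) were called lower in both comparisons, and NFE2L2, the regulator of the antioxidant response, was at -2.07 and -0.83. IRX1 and IRX2, neighbours on chromosome 5, were at -0.10 and -0.20 against WT with vincristine (edgeR adjusted p = 0.597 and 0.342), although their untreated values were -1.25 and -1.71. Both were called lower when WT vincristine replicate 4 was left out, at -0.29 and -0.41 (adjusted p = 0.0123 and 0.000489). In the JNK, stress kinase and cell death group the count was 16 of 18 (medians -1.04 and -0.93), and in cholesterol and lipid synthesis 7 of 8 (medians -1.02 and -1.09). The windows also hold SMN1, SMN2 and other genes with near-identical copies, but none of the 9 listed was a member.

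ATF2 is a transcription factor that JNK phosphorylates. It was at 122, 123, 129 and 170 CPM in the WT vincristine libraries, 133 to 183 in LZK KO and 154 to 165 in the double KO, and at 64.0, 62.3, 71.7 and 64.3 in DLK KO. The DLK KO libraries lay below every other library. Its log2 fold changes were -1.05 ± 0.11 and -1.27 ± 0.11 (edgeR adjusted p = 1.13e-09 and 2.01e-11), its departure from the shared value was -0.17 against WT (adjusted p = 0.231) and -0.29 against LZK KO (adjusted p = 0.0318). With WT vincristine replicate 4, the library at 170 CPM, left out, it was at -0.93 against WT (edgeR adjusted p = 6.00e-09). In experiment 2 the ATF2 guide took ATF2 from 129 ± 18.6 CPM (SD, n = 5) to 0.526 ± 0.294 (SD, n = 5) untreated, far below its level in DLK KO. MAP3K1, a kinase upstream of JNK on chromosome 5, was at -0.69 and -0.27 in DLK KO, and MAP3K2, in the chromosome 2 level end, at -0.08 and 0.05.

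Some genes stood far below the shared value. MCCC2, a subunit of the mitochondrial enzyme that breaks down leucine, was at 19.8, 19.7, 19.4 and 21.8 CPM in the WT vincristine libraries, 11.9 to 14.8 in LZK KO and 12.3 to 13.4 in the double KO, and at 1.46, 1.45, 1.66 and 1.14 in DLK KO. LZK KO and the double KO overlapped, the DLK KO libraries lay below all others, and the log2 fold changes were -3.80 ± 0.15 and -3.22 ± 0.16 (edgeR adjusted p = 1.51e-21 and 6.64e-19), with departures of -2.92 and -2.26 from the members' median. The value against WT was -3.76 without WT vincristine replicate 4. ZDHHC11B, a palmitoyltransferase-family gene near the tip of chromosome 5, was at 37.5, 33.6, 42.9 and 29.2 CPM in WT, 34.3 to 42.0 in LZK KO and 3.88, 6.06, 6.03 and 4.96 in DLK KO. Its fold changes were -2.77 ± 0.13 and -2.83 ± 0.13, but it has a close paralog, ZDHHC11, and reads could be split between them.

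EPHA4, an ephrin receptor that steers growing axons, was at 136, 156, 159 and 154 CPM in WT with vincristine, 346 to 383 in LZK KO, 114 to 116 in the double KO and 33.7, 35.2, 28.0 and 33.9 in DLK KO. All 4 lines were separate, with LZK KO the highest, and the DLK KO fold changes were -2.21 ± 0.07 and -3.49 ± 0.07 (edgeR adjusted p = 1.83e-24 and 2.10e-30). PKP4, a junction protein, and CCDC148, which ends next to it on chromosome 2, were low together: PKP4 at -2.84 ± 0.08 and -1.77 ± 0.08, CCDC148 at -2.90 ± 0.16 and -1.71 ± 0.17. PKP4 was also low in the double KO, at 70.7 to 77.0 CPM against 352 to 444 in WT. TPPP, a tubulin polymerisation protein, was at -1.42 ± 0.15 and -1.55 ± 0.16.

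CFLAR, the caspase-8 inhibitor cFLIP, was low in all 3 knockout lines. It was at 81.6 to 103 CPM in WT with vincristine, 5.91 to 9.73 in DLK KO, 6.77 to 9.80 in LZK KO and 5.16 to 7.98 in the double KO. The knockout lines overlapped one another and none overlapped WT, with -3.70 ± 0.14 in DLK KO and -3.59 ± 0.14 in LZK KO against WT and -0.11 ± 0.17 between those lines (edgeR adjusted p = 0.654). CAST, a calpain inhibitor in the upper level end of chromosome 5, had the same form on a smaller scale, -0.96 against WT and 0.17 against LZK KO. These 2 genes were chosen for mention after their values were seen.

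Genes were called buffered where the untreated log2 fold change against WT was above -0.25, which is a choice on measured values. There were 67, and 40 of them lay in the level ends, so most are genes outside the lowered runs. The other 27 lay inside the runs, among 419 lowered-run members. The members just inside the limit were LINC01876, NIM1K and ADGRV1 (-0.24, -0.23 and -0.23), and those outside it included RNF180 and CDH18 (-0.26 and -0.27). In the vincristine libraries, which the choice did not use, 14 of the 27 were again above -0.25 against WT, and 9 were above it in all 4 comparisons with WT and LZK KO. LINC01876 and ADGRV1 were then at -0.91 and -1.01 against WT, so some of the 27 were near the shared value with vincristine. Against LZK KO, ADGRV1 was already at -0.88 untreated, and at -0.92 with vincristine. Departure upward was called in 19 of 27 against WT (19.8% of all lowered-run members), in 19 against LZK KO (21.7%) and in 15 against both (10% of lowered-run members and 9.83% of all genes tested), and the 40 in the level ends departed upward against both. Without WT vincristine replicate 4 the counts against WT were 14 again above -0.25 and 21 departing upward. When the lowered-run median was used in place of the members' median, 17 of the 27 departed upward against both. Among the 27, untreated LZK KO was called higher than WT in 17 and lower in 5, and the double KO in 19 and 4. Over all lowered-run members those shares were 26.3% and 15.8%, and 29.1% and 19.6%. These counts share the untreated WT libraries with the choice, so a low WT level enters both. With vincristine all 4 DLK KO libraries lay below all 4 WT in 14 of the 27 (88.1% of lowered-run members, 17.9% of all genes) and above in 6.

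NRP2, a receptor for semaphorins and VEGF, lies inside the chromosome 2 run and was higher in DLK KO than in WT and in LZK KO. It was at 18.6, 17.8, 21.0 and 11.3 CPM in WT with vincristine, 8.91 to 13.2 in LZK KO, 12.8 to 16.2 in the double KO, and 26.9, 32.6, 26.5 and 28.6 in DLK KO. The DLK KO libraries lay above all others, with 0.73 ± 0.13 against WT and 1.38 ± 0.14 against LZK KO (edgeR adjusted p = 2.55e-05 and 3.80e-10). The value against WT was 0.58 (adjusted p = 6.44e-05) without WT vincristine replicate 4, the library at 11.3 CPM. LRP1B, a very long gene for an endocytic receptor, was at 85.1, 79.7, 82.9 and 86.8 CPM in WT, 58.4 to 60.3 in LZK KO, 84.7 to 89.7 in DLK KO and 267 to 283 in the double KO. DLK KO and WT overlapped (0.07 ± 0.05, adjusted p = 0.254), DLK KO lay above LZK KO (0.57 ± 0.05, adjusted p = 2.35e-11), and the double KO lay above every other line.

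PLK2, a stress-responsive kinase of synapses, and SV2C, a synaptic vesicle protein, were buffered against WT in a line pattern of their own. PLK2 was at 4.74 to 8.00 CPM in WT with vincristine, 11.6 to 13.3 in DLK KO, 11.6 to 15.7 in LZK KO and 54.8 to 63.4 in the double KO. It was higher in DLK KO than in WT (0.84 ± 0.12, edgeR adjusted p = 2.77e-07) and its difference from LZK KO was -0.12 ± 0.11 (adjusted p = 0.393). SV2C was at 2.16 to 4.09 CPM in WT, 3.67 to 5.43 in DLK KO, 5.42 to 7.27 in LZK KO and 49.2 to 53.7 in the double KO. WT and DLK KO overlapped (0.45 ± 0.19, edgeR adjusted p = 0.0531, or 0.52 and 0.0306 without WT vincristine replicate 4), and the double KO lay far above the rest. Its mean log2 CPM over the WT and DLK KO libraries was 1.79, so it reached the level minimum through the double KO.

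CREB1, the cAMP response factor, was at 108, 110, 113 and 125 CPM in WT with vincristine, 117 to 122 in LZK KO, 112 to 123 in the double KO, and 89.7, 87.4, 81.4 and 86.5 in DLK KO. The DLK KO libraries were below all others but by less than the run, -0.40 ± 0.06 and -0.48 ± 0.06, departing by 0.48 and 0.50 (edgeR adjusted p = 1.75e-08 and 1.27e-08). ZDBF2, an imprinted gene whose promoter holds the element printed above, was at 106 to 117 CPM in DLK KO, 132 to 159 in WT, 89.1 to 105 in LZK KO and 231 to 247 in the double KO. Its log2 fold changes were -0.38 against WT and 0.18 against LZK KO. MEF2C, a transcription factor of activity-dependent neuronal genes, was at 0.07 and 0.82, and VCAN, a matrix proteoglycan, at 0.45 and 0.24. FAR2P1, POTEF and H3F3AP4 are pseudogenes or members of near-identical families, and TTN-AS1 overlaps TTN on the other strand, so the values of these 4 buffered entries are uncertain.

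**Figure D4:**
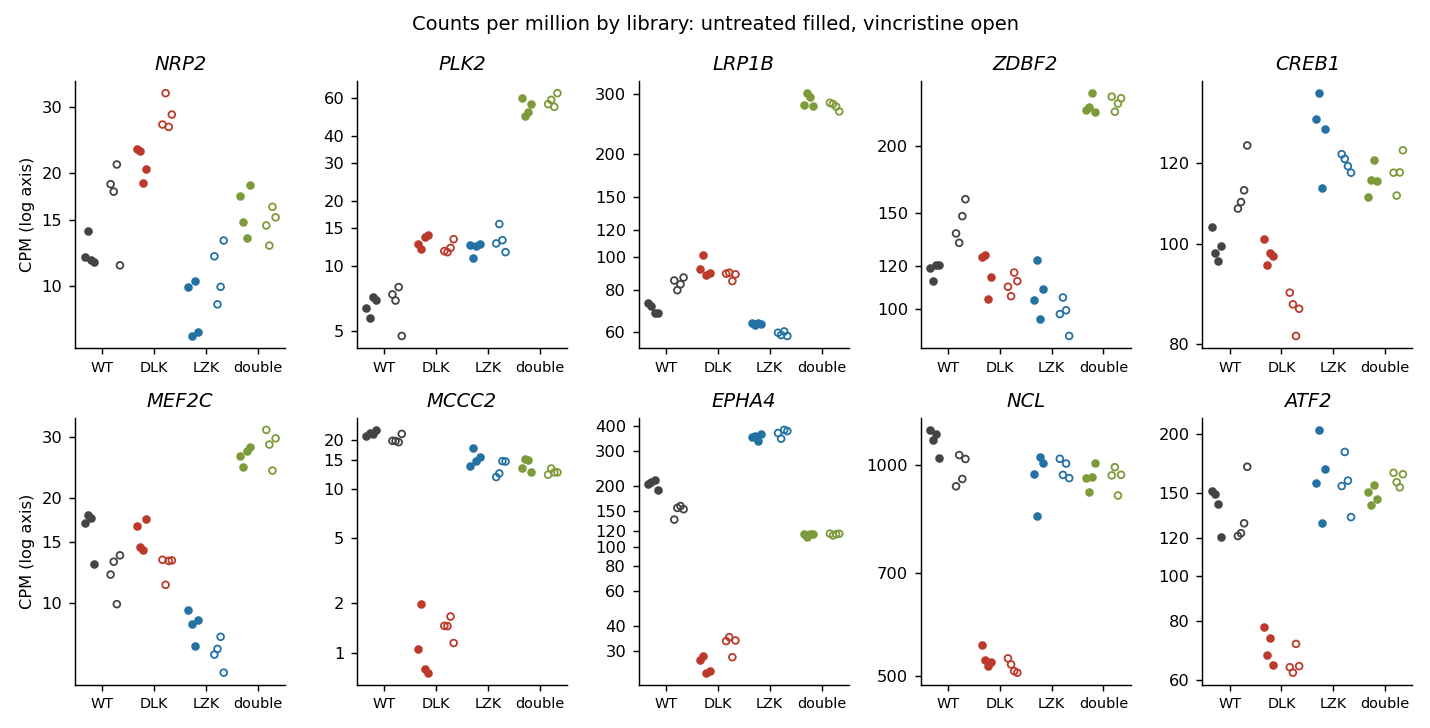
CPM of every library (log axis) by line for 10 genes, filled points untreated and open points vincristine. NRP2, PLK2, LRP1B, ZDBF2, CREB1 and MEF2C are buffered, MCCC2 and EPHA4 depart downward, NCL departs in neither comparison and ATF2 downward against LZK KO only; NCL in DLK KO is at 505 to 530 CPM with vincristine and at 904 or more in the other lines.

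In the level ends, the named buffered genes besides AMMECR1L differed in size. CYP27C1, a retinoid desaturase, was at 9.24 to 10.2 CPM in DLK KO with vincristine, 4.31 to 7.19 in WT and 10.3 to 12.6 in LZK KO, with log2 fold changes of 0.76 and -0.19. TSN, the nucleic-acid-binding protein translin, was at 55.0 to 57.8 CPM in DLK KO, 32.5 to 41.9 in WT and 31.3 to 47.9 in LZK KO, at 0.61 and 0.51. PLCXD3 was at 0.46 against WT and 1.88 against LZK KO, where it was at 9.80 to 18.4 CPM. MAP3K2 and AC093297.2 were between -0.08 and 0.16 in both, and NIFK-AS1, which overlaps another transcript unit on the other strand, was at -0.30 and 0.21.

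The buffered genes of the lowered runs were also variable between lines that did not take part in the choice. Between double KO and LZK KO, neither of which entered the buffering limit, the median size of the log2 fold change was 0.91 untreated and 1.01 with vincristine over the 27 buffered genes, against 0.19 and 0.19 over the other 392. With vincristine 14 of 27 (51.9%) and 18 of 392 (4.59%) differed by 1 log2 unit or more, and 7.14% of all genes at this level did. The buffered genes had a lower median level, a mean log2 CPM of 4.03 against 5.43, so the comparison was also made by level. Under a mean log2 CPM of 5 it was 9 of 18 (50.0%) against 10 of 152 (6.58%), and at 5 or more 5 of 9 (55.6%) against 8 of 240 (3.33%). The level minimum was met by some genes only through the lines compared here. Among members whose mean log2 CPM over the WT and DLK KO libraries was also 3 or more, a limit added after seeing the data, it was 12 of 22 (54.5%) against 14 of 379 (3.69%), and 7.30% of all genes at this level. LRP1B (2.22), PLK2 (2.13), VCAN (2.10) and MEF2C (1.98) were higher in the double KO with vincristine, and POTEF (-1.98) and SCG2 (-1.92) were lower. The median gene span of the 27 was 116 kb against 64.9 kb for the others, and 1 of the 19 with a RefSeq promoter held the cAMP response element (5.26%) against 5 of 328 (1.52%).

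**Figure D5:**
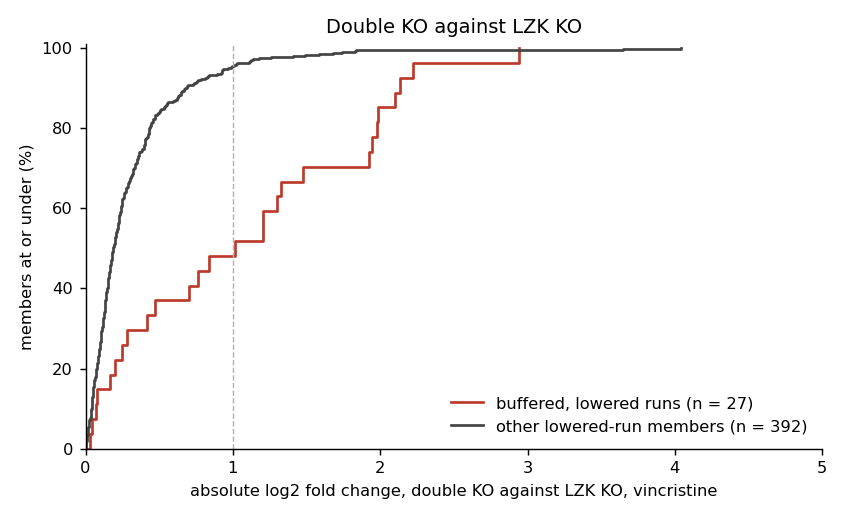
Cumulative percent of lowered-run members (vertical axis) by the size of the log2 fold change between double KO and LZK KO with vincristine, for 27 buffered genes and the other 392. At the dashed line of 1 log2 unit, 51.9% of the buffered genes and 4.59% of the others lie to the right.

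Vincristine calls among the members were far fewer in DLK KO and LZK KO than in WT, and so were those over all genes. In WT 90 members were called higher (19.2%, beside 15.7% of all genes) and 108 lower (23.1%, beside 14.5%). In DLK KO 17 were called higher (3.63%, beside 4.24%) and 16 lower (3.42%, beside 2.28%). In LZK KO 8 were called higher (1.71%, beside 2.27%) and 20 lower (4.27%, beside 1.61%). The count in DLK KO depends on the libraries: leaving out WT vincristine replicate 4, which enters through the shared spread, raised it from 33 to 76, and leaving out DLK KO vincristine replicate 1 or 2 lowered it to 13 and replicate 4 to 19. Without WT vincristine replicate 4 the count in WT was 222 in place of 198. The difference in effect between DLK KO and WT was called higher in 55 members (9.95% of all genes) and lower in 74 (9.41%), and in 120 in all without that WT library. Between DLK KO and LZK KO it was called in 0 members (0.0658% of all genes, either direction), with 36 at an unadjusted p under 0.05 in edgeR and 1 called by DESeq2, which gave 35 unadjusted.

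Some members fell with vincristine in WT and less in DLK KO. VWC2L, on chromosome 2, was at 40.3, 37.0, 38.1 and 37.4 CPM in untreated WT and at 5.67, 9.71, 8.87 and 8.84 with vincristine, and in DLK KO at 18.3 to 22.1 untreated and 13.1 to 14.9 with vincristine. Neither pair of groups overlapped; the effect was -2.20 in WT and -0.54 in DLK KO, a difference of 1.66 ± 0.18 (edgeR adjusted p = 8.69e-09). Its DLK KO value against WT therefore went from -0.95 untreated to 0.72 with vincristine, while against LZK KO it was -0.11 with vincristine. LYPD1 and ENC1 fell by 1.60 and 1.34 in WT, with differences in effect of 1.22 and 1.09.

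Other members rose with vincristine in WT and less in DLK KO. ITGAV, the integrin alpha-V subunit, was at 12.7 to 15.7 CPM in untreated WT and 38.4 to 48.5 with vincristine, and at 6.37 to 10.5 and 8.74 to 10.5 in DLK KO. Its effect in WT was 1.55 and the difference in DLK KO -1.46 (edgeR adjusted p = 3.70e-08). NYAP2, a neuronal PI3-kinase adaptor, went from 10.3 to 15.3 CPM up to 40.4 to 44.7 in WT and stayed at 4.95 to 8.80 and 7.35 to 8.67 in DLK KO, a difference of -1.38 (adjusted p = 1.73e-07). PIK3R1, the regulatory subunit of PI3-kinase, rose by 1.21 in WT and by 0.28 in DLK KO (edgeR adjusted p = 0.00809 for the latter), a difference of -0.93. These responders were named after their values were seen. The differences in effect of the 6 genes from VWC2L to PIK3R1 kept their direction and call without WT vincristine replicate 4, with VWC2L at 1.69, ITGAV at -1.39 and PIK3R1 at -0.84.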

How the data were processed

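RNA-seq counts per gene were deposited by the authors as raw counts, without normalization, for 32 libraries of experiment 1 and 29 of experiment 2. Per the submitters' processing notes, cutadapt 3.4, STAR and featureCounts (Subread 2.0.1) were used with GRCh38; the strand setting of the counting is not given in the sources used here. Gene coordinates came with the deposited counts and names from GENCODE 29. Counts were tested with edgeR 4.0.16 (filterByExpr by group, TMM, robust quasi-likelihood fit of all 8 groups, Benjamini-Hochberg over 18235 genes, called under 0.05). R 4.3.3 and Python 3.11.15 were used, the fit was tested on simulated data, and DESeq2 1.42.0 was an alternative. Departure was tested with an offset of the members' median in the DLK KO vincristine libraries. CPM values are counts scaled by the TMM-adjusted library total, not per length, so levels are not compared between genes. Low-count genes carry wider errors, so the level minimum of 3 limits the counting error.

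The members and lists were chosen with earlier results of these data known. Named genes were MAP3K12, MAP3K13, ATF2, the 12 buffered members with the highest untreated value and departing upward in both comparisons, the 6 lowest departing downward in both, the 6 highest in level with no departure, those beside each edge, and list members. Other names were added after the values were seen. Some results are not reported here. Replicate numbers did not pair the samples. Of 48 replicate pairs, 0 were identical.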

Additional observations from a re-analysis of the deposited data

Results flagged for a closer look

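In 12 of the 224 groups of 4 libraries looked at (25 named genes and 3 library scores), the highest or lowest library lay far from the others, where chance flags about 1 in 20 groups. Of these, 5 were in WT vincristine replicate 4. Its lowered-run score was 0.0895 where the next library was at -0.0684, and its level-end score 0.129 where the next was at -0.0195. In the same library MCCC2 was at 21.8 CPM (next 19.8), MARCH6 at 367 (next 338) and ATF2 at 170 (next 129). LZK KO untreated replicate 3 had a level-end score of -0.0923, CYP27C1 at 13.9 CPM and NIFK-AS1 at 6.66. The others were PLCXD3 at 63.5 in WT untreated replicate 4, CCDC148 at 4.15 in DLK KO untreated replicate 3, SF3B1 at 531 in LZK KO vincristine replicate 4 and MARCH6 at 183 in DLK KO vincristine replicate 4.

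The vincristine effect differed between DLK KO and WT in 7 of those 25 genes by the edgeR interaction test. LRP1B differed by -0.32 (effects of -0.07 in DLK KO and 0.25 in WT, adjusted p = 0.00145), NIFK-AS1 by -0.65 (-0.29 and 0.36, adjusted p = 0.0173) and MAP3K2 by -0.38 (-0.09 and 0.28, adjusted p = 0.00105). EPHA4 differed by 0.79 (0.35 and -0.44, adjusted p = 8.92e-08), PKP4 by -0.51 (0.55 and 1.07, adjusted p = 0.000577), TPPP by 0.67 (0.50 and -0.17, adjusted p = 0.0315) and BASP1 by 0.49 (0.27 and -0.22, adjusted p = 0.0342). Without WT vincristine replicate 4 the 7 differences kept their direction and call, with TPPP at 0.46 (adjusted p = 0.00659) and BASP1 at 0.33 (adjusted p = 0.0354).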

How the results depend on the processing

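The 400 members called lower against WT numbered 396 to 403 when any library was left out, and the 400 against LZK KO 393 to 402. The medians of -0.88 and -0.97 ranged from -0.93 to -0.84 and from -1.02 to -0.95 over all alternatives. With membership from a mean log2 CPM of 5 the counts called lower were 243 and 244 and those departing 161 and 149, since fewer genes are members, and from a mean log2 CPM of 1 they were 513 and 515, and 324 and 317, since more are. The 67 buffered members numbered 88 with a limit of -0.5 and 45 with a limit of 0. Without the count filter the vincristine effect was called in 15 members in LZK KO and its difference between DLK KO and LZK KO in 1; the cause was not tested. The vincristine effect in DLK KO was called in 13 to 76 members when a library was left out. Same-numbered libraries correlated between -0.50 and 0.26 and 2 of 16 libraries correlated best with their own number, so they share only a number. With the replicate block the counts called lower were 400 and 398, those departing 244 and 233, and the vincristine counts 186 in WT, 25 in DLK KO and 116 for the difference. The alternatives restricted to the lowered runs, and those for the LZK KO, double KO and vincristine counts, were chosen after seeing the data. For 229 named genes, 3128 of 3206 alternative values kept direction and call, 55 lost the call, 23 gained it and 0 reversed.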
